A study of Caenorhabditis elegans with 2 samples.

Results

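The cuticle collagen genes of Caenorhabditis elegans were examined for HLH-11 peaks at their starts. They were taken as all protein-coding genes of the WBcel235 annotation with symbols starting col- (156 genes), plus 18 collagen genes named for the body shape of their mutants (bli, dpy, sqt, rol and lon), and numbered 174 of 19973 protein-coding genes. The transcription factor HLH-11 has a basic helix-loop-helix domain and is related to AP-4 of mammals. ChIP-seq, which sequences the DNA recovered with a protein, located its peaks in 2 biological replicates of a single group. All worms were of strain OP396, with the genotype unc-119(tm4063) III; wgIs396, in which a transgene supplies HLH-11 fused at its C-terminus to GFP and FLAG. They were whole L4 larvae of mixed sex at 53 hours, grown after starvation at the first larval stage, and the description says that the protein was recovered with an antibody to GFP. The antibody label instead reads hlh-11, and the files used here do not settle which holds. No untagged or mutant worms were compared, and in whole worms a peak cannot be assigned to a tissue. A gene is called bound here when the summit of a thresholded peak fell in its promoter window, which reached 1000 bp before and 500 bp past each annotated start. Strength is the signal value that the authors' software gave each peak. Sequencing depth is unknown, since the lists carry no counts of reads. Nothing beyond the label of biological replicate says whether the 2 samples came from separate cultures.

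The cuticle is the collagen-rich coat that the epidermis secretes under each old coat before a moult. Collagen chains are hydroxylated and folded in the endoplasmic reticulum, trimmed by proteinases on the way out, and cross-linked in the extracellular space. Different collagens build different parts: furrow collagens line the circumferential grooves, strut collagens form the pillars of the adult cuticle, and many col- genes are switched on for a single stage. The rule goes by symbol, so it also takes in col-99, a transmembrane collagen, and leaves out the cuticle collagens dpy-4 and dpy-5.

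Collagen genes were bound about as often as other genes, but by weak peaks. Of the 174 genes, 33 were bound, or 19% (95% exact binomial interval 13.4 to 25.6, which covers the counting of genes only), and 21.3% of all protein-coding genes were bound (4247 genes). The interval of the collagen share holds the share of all genes. With the chromosome of each collagen gene taken into account, the share of all genes would give 36.9 bound members, or 21.2%. Among genes with a single annotated start, 27 of 151 collagen genes (17.9%) and 16.7% of all such genes were bound. The bound collagen genes comprised 28 of the 156 col- genes (17.9%) and 5 of the 18 body-shape collagens (27.8%, interval 9.69 to 53.5).

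The strongest peak of a bound collagen gene had a median signal of 123.5, with the middle 50% of genes between 107.2 and 175.8. The other bound genes had a median of 205.7, with the middle 50% between 136.1 and 345.2. Ranked among all 4247 bound genes by this signal, from 0 for the weakest to 100 for the strongest, the bound collagen genes stood at a median percentile of 19.1. Of the 33, 18 (54.5%) were in the lowest 25% of bound genes, 9 in the next, 4 in the third and 2 (6.06%) in the top 25%. Their signals ran from 88.8 to 401.8, in a list whose signals run from 88.3 to 2943. No collagen gene had a peak among the 1000 strongest, where 3.41% of all genes had one.

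**Figure D1:**
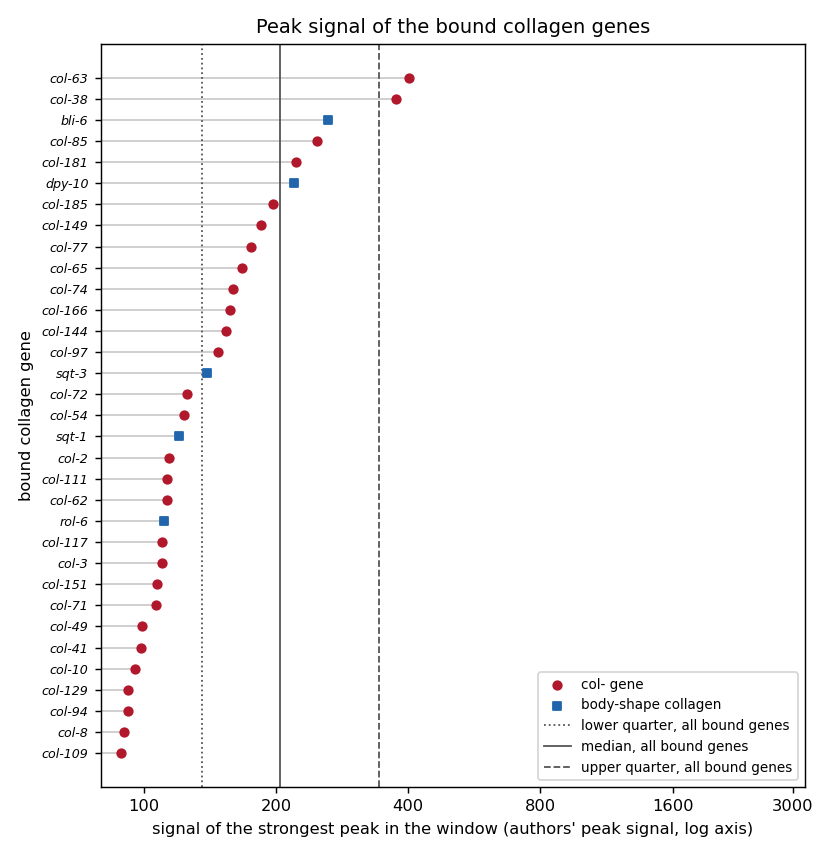
Signal of the strongest peak in the promoter window of each of the 33 bound collagen genes (log axis, authors' peak signal), with the lower quartile, median and upper quartile of all 4247 bound genes as vertical lines. Only col-63 and col-38 lie to the right of the upper quartile at 343.3, and 18 genes lie to the left of the lower quartile at 135.8.

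The share of collagen genes relative to all genes depended on how far down the lists the peaks were read. With the strongest 2000 pooled peaks, 1.15% of collagen genes (2 genes) had a summit in the window, against 6.6% of all genes. With the strongest 3931 peaks, the shares were 4.6% for collagen genes (8 genes, interval 2.01 to 8.86) and 12.4% for all genes. The curves crossed just below the threshold. At 9000 peaks the shares were 22.4% for collagen genes and 23.1% for all genes, and at 10000 peaks they were 27.0% and 24.8% in the same order. With all 30000 pooled peaks, which hold background as well as peaks, 102 collagen genes (58.6%, interval 50.9 to 66.0) and 40.6% of all genes had a summit. Collagen genes with summits below the threshold alone numbered 69 (39.7%), against 19.3% of all genes.

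Both replicates gave the same order when read separately. In replicate 1, 2.30% of collagen genes and 9.75% of all genes had a summit among the strongest 3000 peaks, and 56.9% and 43.1% had one in the whole list. In replicate 2, the shares were 3.45% for collagen genes and 9.44% for all genes among the strongest 3000, and 58.0% and 42.3% in the whole list. The limits on the number of peaks, other than 3931, 7863 and 30000, were chosen after the values were seen.

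**Figure D2:**
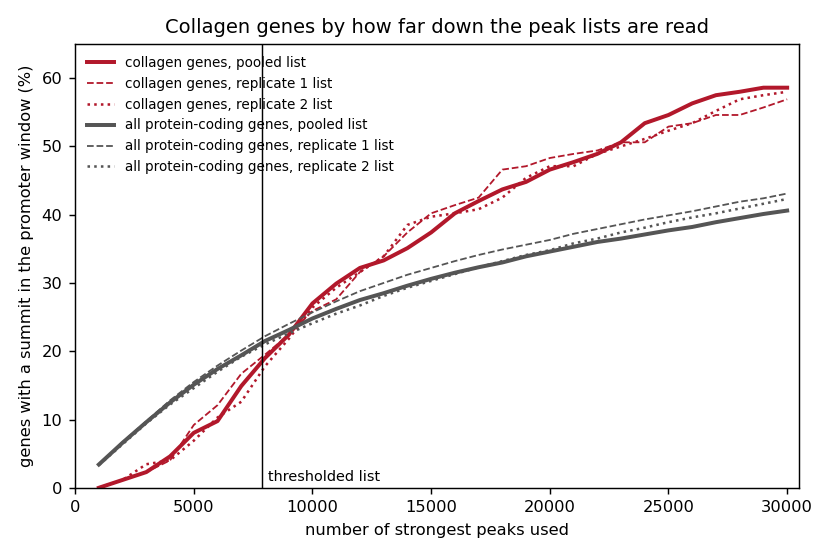
Percentage of genes with a summit in the promoter window (vertical axis) against the number of strongest peaks used (horizontal axis), for the 174 collagen genes and all 19973 protein-coding genes, in the pooled list and in each replicate. The collagen curves start below the curves of all genes and end above them in all 3 lists, with the crossing between 9000 and 10000 peaks.

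Among the furrow collagens, 1 of 6 was bound (16.7%, interval 0.421 to 64.1, beside 21.3% of all genes). dpy-10, whose loss makes worms short and fat and whose edited allele is a common marker in genome editing, had a peak at chrII:6712369-6712792 with a signal of 219.6. The signal was 98.8 in replicate 1 (rank 3240) and 114.9 in replicate 2 (rank 3367). Its summit lay 354 bp upstream of dpy-10 and 350 bp from the start of T14B4.19, in an intron of that gene. dpy-7 missed the threshold, with a pooled signal of 82.6 at rank 8316, 303 bp upstream of its start. It ranked 8662 in replicate 1 and 8359 in replicate 2, so that both replicates placed it just beyond the length of the thresholded list. dpy-2 had a pooled signal of 76.3, and dpy-3, dpy-8 and dpy-9 had no summit in the pooled list.

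Of the 3 strut collagens, bli-6 alone was bound (33.3%, interval 0.84 to 90.6, beside 21.3% of all genes). It had 2 peaks, of which the stronger, at chrIV:6376687-6376850, had a signal of 262.1, with 117.8 in replicate 1 (rank 2475) and 139.2 in replicate 2 (rank 2608). That summit lay 301 bp upstream of bli-6 and 241 bp from the start of hrpf-2, and the second, with a signal of 142.3, lay 98 bp upstream of bli-6. bli-2 and bli-1 stayed below the threshold with pooled signals of 72.1 and 71.1. The replicates differed for both: bli-2 ranked 12075 in replicate 1 and 7625 in replicate 2, and bli-1 ranked 6487 and 10135.

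Of the other 9 body-shape collagens, 3 were bound (33.3%, interval 7.49 to 70.1, beside 21.3% of all genes), all weakly. sqt-3, a cuticle collagen, had 3 peaks in the windows of its 2 annotated starts. The strongest (signal 139.0, chrV:12353660-12353934) had its summit in a coding exon, 415 bp downstream of the inner start, that of the shorter transcript. A peak of 102.0 lay 165 bp upstream of that inner start, within the longer transcript, and a peak of 106.0 lay 700 bp upstream of the outer start. sqt-1 and rol-6, whose mutants roll around their long axis, had signals of 120.5 and 111.2 with summits 41 bp and 331 bp upstream. dpy-13 and sqt-2 reached pooled signals of 68.8 and 68.4 below the threshold, and dpy-14 and lon-3 reached 32.8 and 28.0. For dpy-17 and rol-8 the pooled list had no summit in the window.

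Among the col- genes, the strongest peak was that of col-63, at chrI:8245547-8245781 with a signal of 401.8. Its signal was 197.3 in replicate 1 (rank 1034) and 200.6 in replicate 2 (rank 1496), and the summit lay 686 bp upstream in the 3' UTR of the homeobox gene ceh-8. Further peaks of col-63 had signals of 157.6 and 100.7 inside the gene. col-38 was next, with a signal of 375.5 at chrII:8569376-8569652 and with 167.6 in replicate 1 (rank 1406) and 211.8 in replicate 2 (rank 1369). Its summit lay 421 bp from the col-38 start and 418 bp from the start of rpl-5, a ribosomal protein gene, so this peak lies in the windows of both genes. col-85 followed with 247.6 (115.3 in replicate 1 and 131.4 in replicate 2), and its summit, 336 bp downstream of the start, fell inside a tRNA gene within a col-85 intron.

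The next col- genes were col-181 (221.8, summit 89 bp upstream), col-185 (196.9), col-149 (185.2), col-77 (175.8), col-65 (167.4), col-74 (160.1), col-166 (157.5), col-144 (153.8) and col-97 (147.8). col-72, col-54, col-2, col-111 and col-62 had signals from 113.0 to 125.8, and col-3 and col-117 shared a single peak of 109.9 between their divergent starts. At the weak end were col-94 (92.1), col-8 (90.1) and col-109 (88.8), close to the lowest signal of the list. Just below it were col-103 (86.1), col-90 (86.0) and col-93 (83.6). Of the other col- genes looked up by name, col-10 was bound by a weak peak of 95.4, 126 bp upstream. col-19, an adult-specific collagen and a common adult reporter, had no summit in the window in any of the 3 lists of 30000 peaks, and neither had col-7 or col-34. col-17 had a summit in replicate 1 alone (rank 19580) and col-99 in replicate 2 alone (rank 29940), and neither had one in the pooled list.

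Sequences within 50 bp of the strongest summit are shown for col-38, bli-6 and col-85, the strongest bound members among those whose window could be shown, and for col-181 as the strongest with the GATA-factor type sequence TGATAA. They were read from the plus strand of the RefSeq WBcel235 genome. Capitals mark any of the 13 hexamers searched, described after the sequences.
col-38 (chrII:8569459-8569559): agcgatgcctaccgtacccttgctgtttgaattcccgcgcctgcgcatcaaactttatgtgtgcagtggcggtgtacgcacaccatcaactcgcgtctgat
bli-6 (chrIV:6376714-6376814): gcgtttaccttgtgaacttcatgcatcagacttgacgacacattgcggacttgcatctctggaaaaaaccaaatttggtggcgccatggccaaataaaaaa
col-85 (chrII:12494709-12494809): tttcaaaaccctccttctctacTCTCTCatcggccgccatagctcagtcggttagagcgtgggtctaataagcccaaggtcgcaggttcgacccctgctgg
col-181 (chrX:12104791-12104891): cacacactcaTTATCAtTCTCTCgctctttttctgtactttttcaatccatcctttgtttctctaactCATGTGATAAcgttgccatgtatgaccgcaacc

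The windows of col-38 and of the stronger bli-6 peak held none of the 13 hexamers. In that of col-85 the capitals are GAGAGA on the minus strand, beside the tRNA gene. That of col-181 held TGATAA on both strands and GAGAGA. Its last capitals are CACATG on the minus strand, which overlaps TGATAA there.

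The 13 hexamers, searched on both strands, were the 10 E-boxes of the form CANNTG and 3 others. Of these, TGATAA is of the GATA-factor type. The second was CTTATC, which can overlap the complement of the first. The last was GAGAGA. Taken 1 at a time, no E-box exceeded 8.11% of the collagen peaks or 7.91% of promoter peaks in general. The share of peaks with any E-box is not given here. The 33 bound genes held 37 distinct peaks in their windows. CAGCTG, an E-box that AP-4 proteins recognise, lay within 50 bp of 2 of these summits (5.41%, interval 0.661 to 18.2). It was at 4.6% of all 4171 promoter peaks. The 2 summits belong to a col-63 peak and a sqt-3 peak. For col-63 this was not the strongest peak of 401.8 but a weaker peak, of 157.6 or 100.7. Which sqt-3 peak held the site is not given here. With the strongest 7863 peaks of a single replicate, CAGCTG was at 0% of collagen summits in replicate 1 and 2.78% in replicate 2. Within 25 bp of the thresholded summits it was at 0%. CACGTG, which Myc and Max proteins bind, was at 0 of 37, which allows a share of up to 8.11%, and at 5.61% of promoter peaks. CAGATG was at 3 collagen summits (8.11%) against 5.01% of promoter peaks, and CACATG was at 2 (5.41%) against 7.24%. CACCTG was at 1 summit (2.7%), of col-8, against 3.24% of promoter peaks. The col-2 summit held CAAATG, found at 7.91% of promoter peaks, and also CAATTG, found at 4.03%. No collagen summit held CAAGTG (7.12% of promoter peaks), and the same was true of CAACTG (7.17%) and of CATATG (1.82%). TGATAA was the most frequent of the 13 sequences, at 8 of 37 (21.6%, interval 9.83 to 38.2) against 23.6% of promoter peaks. The 8 peaks belong to bli-6 (its weaker peak of 142.3), dpy-10, col-10, col-65, col-74, col-144, col-149 and col-181. CTTATC and GAGAGA were each at 5 (13.5%, interval 4.54 to 28.8), against 17.2% and 23.8% of promoter peaks. Each of these intervals holds the share of all promoter peaks, so no difference was detectable for any single hexamer with 37 peaks. The E-boxes were not compared as a class. The mean GC content of the windows was 46.1% at collagen peaks and 44.3% at promoter peaks.

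Presence in the replicate lists followed the signal. The thresholded list was made from these same 2 replicates, so presence in them is partly built in and is not independent support. Each of the 33 bound collagen genes also had a summit in its window among the strongest 7863 peaks of at least 1 replicate. For 24 of them (72.7%, interval 54.5 to 86.7) this held in both replicates, against 85.8% of all bound genes. For 5 genes it held in replicate 1 alone and for 4 in replicate 2 alone. Among the 18 collagen genes in the lowest 25% of signal, 10 were found in both (55.6%), against 48.4% of all bound genes in that range. Above it, 14 of 15 (93.3%) were found in both, against 98.3% of all bound genes there. The exception was col-77, whose window had a signal of 97.4 in replicate 2 (rank 4100) and of 17.3 in replicate 1 (rank 17460). In the other direction, the peak between col-3 and col-117 ranked 4984 in replicate 1 and 9960 in replicate 2. Replicate 2 had a summit within 100 bp of the strongest thresholded summit for all 33 genes. Replicate 1 had such a summit for 31, all but col-77 and col-109, so its col-77 signal of 17.3 came from elsewhere in the window.

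**Figure D3:**
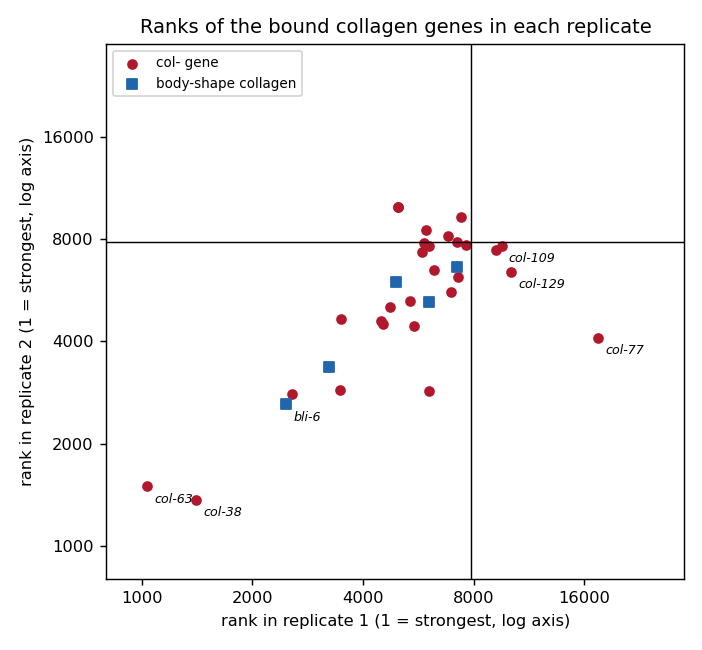
Rank of the strongest summit in the promoter window in replicate 1 (horizontal, log axis) and replicate 2 (vertical, log axis) for the 33 bound collagen genes, with black lines at rank 7863. 24 genes lie inside both lines, and col-77 lies farthest from the others, at 17460 in replicate 1 and 4100 in replicate 2.

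Most summits lay upstream of the collagen start, measured to the nearest start where a gene has several (6 of the 33). In 25 of 33 genes (75.8%) the strongest summit was upstream, against 89.0% of all bound genes, and in 8 it was inside the collagen gene. Summits ran from 938 bp upstream (col-65) to 435 bp downstream (col-72), and 27 lay within 500 bp. The median position was -246 bp, against -219 bp for all bound genes. By annotation 20 summits were intergenic, 7 in introns, 4 in coding exons and 1 each in a 5' and a 3' UTR. For 3 genes, col-54, col-85 and col-185, the summit fell inside a tRNA gene. Without peaks at tRNA, snoRNA and snRNA genes, 30 of the 33 collagen genes and 4128 of all 4247 bound genes remained bound. The annotation classes are not given for all bound genes, so they cannot be called particular to collagen genes.

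For 10 of the 33 genes (30.3%) the peak also lay in the window of another gene, against 33.8% of all bound genes. The partners were rpl-5 for col-38, hrpf-2 for bli-6, T14B4.19 for dpy-10, ndc-80, a kinetochore gene, for col-2, C15A11.7 for col-62, ugt-1 for col-151, Y49F6B.2 for col-71, rfl-1 for col-8, and col-3 and col-117 for each other. In 9 of the 33 genes the summit was nearer to the start of another gene. With each peak given to the nearest start, bound collagen genes went from 33 to 25, and all bound genes from 4247 to 3562. Among collagen genes with the start of another gene inside the window, 10 of 32 (31.2%) were bound, against 16.2% of the 142 without one. The same shares for all genes were 29.8% with and 18.7% without such a neighbour.

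**Figure D4:**
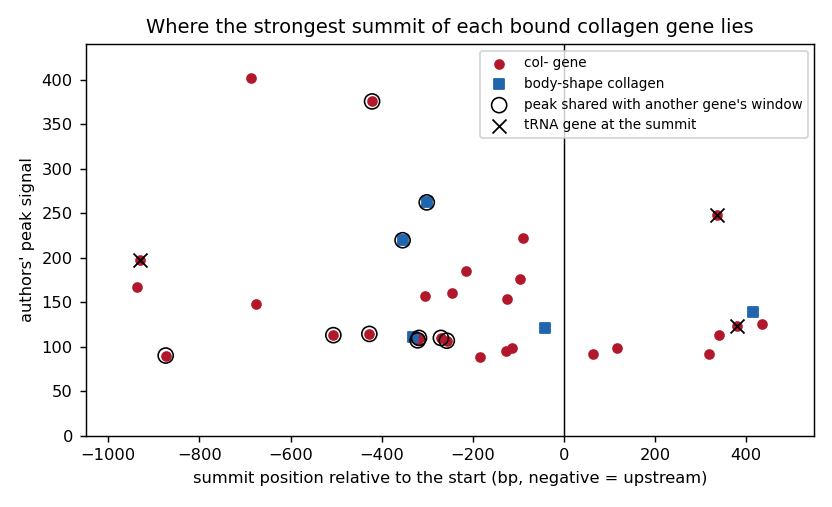
Position of the strongest summit relative to the start (bp, negative upstream) and its signal for the 33 bound collagen genes, with circles for peaks shared with another gene's window and crosses for summits in tRNA genes. The 3 strongest peaks lie upstream between 301 and 686 bp, and 2 of these 3 are circled.

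By chromosome, collagen genes on X stood apart most from their neighbours. On X, 4 of 30 collagen genes (13.3%) and 28.2% of all genes were bound, although X has the highest share of bound genes. On II, 9 of 32 collagen genes (28.1%) and 20.6% of all genes were bound. The remaining shares were 22.7% of collagen genes and 22.9% of all genes on I, 23.1% and 25.4% on III, 15.9% and 18.1% on IV, and 15.2% and 16.9% on V. With 13 to 44 collagen genes per chromosome these shares are imprecise, and the differences were not tested.

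**Figure D5:**
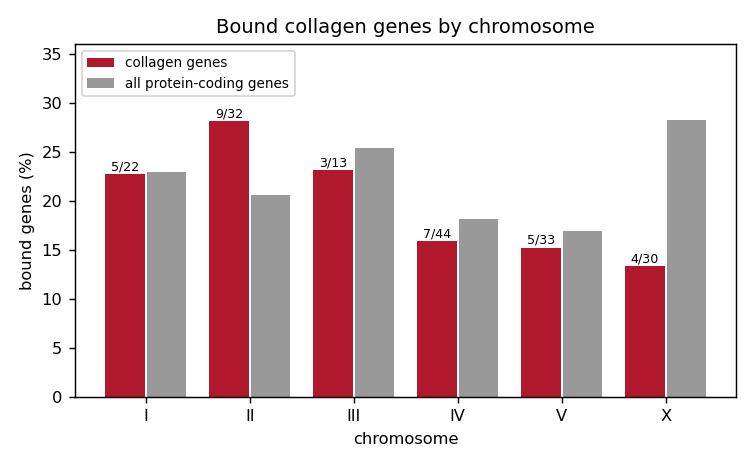
Percentage of bound genes per chromosome for collagen genes (left bar, with bound and total numbers) and all protein-coding genes (right bar). Collagen genes are at 13.3% on X against 28.2% of all genes, and at 28.1% on II against 20.6%.

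Genes that act on collagens were also examined. Of 6 genes for collagen synthesis and folding, 5 were bound (83.3%, interval 35.9 to 99.6), against 21.3% of all protein-coding genes. The 2 strongest of their peaks had higher signals than any collagen peak. pdi-3, a protein disulphide isomerase gene, had a signal of 1085 at the 97.8 percentile of bound genes, in a peak shared with the window of ubql-1. That summit lay 660 bp upstream of pdi-3. pdi-2, which encodes the subunit shared by the prolyl 4-hydroxylases that modify collagen, had 699.6 (93.1 percentile, summit 43 bp upstream). dpy-11, a thioredoxin-like gene needed for cuticle formation, had 341.5, phy-2, a prolyl 4-hydroxylase catalytic subunit, had 157.9, and let-268, the lysyl hydroxylase gene, had 102.2. dpy-18, the other main catalytic subunit, was not bound. Of 8 genes for trimming and cross-linking, the astacin proteinase gene dpy-31 alone was bound (105.1), or 12.5% (interval 0.316 to 52.7), beside the same 21.3%. The subtilisin-like proteinase gene bli-4, the dual oxidase gene bli-3, tsp-15, the peroxidase gene mlt-7, bli-5, nas-36 and nas-37 were not.

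Of 11 genes for other cuticle and apical matrix proteins, 5 were bound (45.5%, interval 16.7 to 76.6, beside 21.3% of all genes): lpr-3, a lipocalin-like gene (220.1), the cuticlins cut-5 (114.6) and cut-2 (97.9), and the zona pellucida domain genes noah-1 (95.6) and noah-2 (95.1). Of the 11 epidermal and moulting regulators, 5 were also bound, with the same share and interval. myrf-1, a membrane-bound transcription factor, had 1161.3 at the 98.2 percentile, and lin-42, the worm Period homologue, had 474.1 at the 85.3 percentile. blmp-1 had 213.0, the nuclear receptor genes nhr-23 and nhr-25 had 134.6 and 92.1, and grh-1, elt-1, elt-3, lin-29, bed-3 and lin-26 were not bound. Among collagens outside the rule, dpy-5 had a peak of 110.6 and dpy-4 none. Of the basement membrane collagens, let-2 had 146.0, and emb-9 and cle-1 had none. These lists are short, and their shares were not tested against other genes.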

How the data were processed

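Peak lists of HLH-11 ChIP-seq from 2 replicates were used. Per the submitters' notes on the files, the authors made lists from each replicate and from both pooled (30000 peaks each, background included) and a list thresholded by the irreproducible discovery rate (7863 peaks, all among the strongest 7863 of the pooled list), on build ce11. The aligner, the caller and the normalization of the signal are not stated there. The signal and summit offset of each deposited peak were used. Signals were compared within a list and replicates by rank.

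Starts came from Ensembl 115 (WBcel235, the same assembly as ce11) and sequence from RefSeq. A peak could count for several genes, and each gene took its strongest. Intervals are exact binomial (SciPy 1.17.1), and the limit for a count of 0 is 3 counts of the total. With 1 group no test was run, and shares are described beside those of all genes. Window assignment was checked on simulated data. The members, lists and hexamers were chosen with earlier results of these data known. Named by rule were all body-shape members, the 20 strongest and 3 weakest bound members, the 3 unbound members with the highest pooled signal, 7 further col- genes, the pathway lists, and members that share a peak or hold CAGCTG or CACGTG. Others were named after their values were seen. Sequences from chromosome I or overlapping a UTR are not shown, and 1 further sequence is not reported here. Alternatives were each replicate's strongest 7863 peaks, other signal limits, promoter and motif windows, nearest-start assignment, 1 start per gene, merged peaks, and removal of peaks within 200 bp of tRNA, snoRNA or snRNA genes.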

Additional observations from a re-analysis of the deposited data

How the results depend on the processing

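The count of bound collagen genes was 28 to 37 with other promoter windows, 25 with each peak given to the nearest start, and 30 without peaks at tRNA, snoRNA and snRNA genes. It was 8 with the strongest 3931 peaks and 102 with all pooled peaks. The percentage bound was 4.6 and 58.6 for those 2 lists, 16.1 with promoters of 500 bp, 21.3 with 2000 bp, 14.4 with the nearest start and 17.2 without the small RNA peaks.

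The ratio of the collagen share to that of all genes was 0.892. It was 0.858 to 0.892 in single replicates, 0.935 and 0.796 with promoters of 500 and 2000 bp, 0.806 with the nearest start, 0.934 with 1 start per gene and 0.834 without small RNA peaks. It followed the signal limit, at 0.174 with the strongest 2000 pooled peaks, 0.372 with 3931, 1.17 with 12000, 1.34 with 20000 and 1.44 with all. The limits at 2000, 12000 and 20000 were chosen after seeing the data.

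The median percentile of 19.1 was 24.6 to 26.2 in single replicates, 26.6 with the strongest 3931 peaks, 35.8 with all pooled peaks, 25.2 with promoters of 2000 bp, 27.7 with the nearest start and 16.5 without small RNA peaks, so that it was below 50 in each case. The number of genes in the top 25%, 2 above, was 1 with promoters of 500 bp, 1 with the nearest start, 0 with the strongest 3931 peaks and 6 with all pooled peaks. TGATAA was at 16.7% to 22.9% of collagen summits in single replicates, and at 8.11% and 27.0% with windows of 25 and 100 bp. With the strongest 3931 peaks, where only 8 collagen genes were bound, it was at 37.5%. CAGCTG was at 0% to 2.78% in single replicates, 0% with the strongest 3931 peaks and within 25 bp, and 10.8% within 100 bp. For these alternatives the hexamer shares of all promoter peaks are not given, so the changes cannot be called particular to collagen genes. The median summit lay at -246 bp, at -224.5 to -184 bp in single replicates, at -327.5 bp with the strongest 3931 peaks and at -301 bp with promoters of 2000 bp. The cause of these shifts was not tested.

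No paired analysis was possible because the series holds a single group. Signals near 88.3, where many collagen genes lie, are those at which small changes in rank decide whether a gene is bound.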

Other observations

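Among other large gene families of the epidermis and of defence, 12 of 86 hedgehog-related and patched-related genes were bound (14%, exact binomial interval 7.42 to 23.1), and 31 of 240 C-type lectin genes (12.9%, interval 8.95 to 17.8). The collagen share of 19% was above both and the intervals overlap. Each of these shares was below the 21.3% of all protein-coding genes, and of the intervals only that of the C-type lectin genes lies wholly below it. The differences were not tested.

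The distance from a collagen start to the nearest thresholded summit, whatever its place, had a median of 4439 bp, against 5726 bp for all protein-coding genes. It exceeded 5000 bp for 43.7% of collagen genes and 53.3% of all genes. col-124 had summits in its window at ranks 4950 and 5087 in replicates 1 and 2, but its strongest pooled summit there had a signal of 60.6 and it was not among the bound genes.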
